A study of Mus musculus with 2 samples.

Results

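The peaks described here were the strong accessible regions at the ends of protein-coding genes in sorted mouse colonic macrophages. The members were chosen by WT pileup, position and overlap. The WT summit pileup, the number of sequenced fragments or reads stacked at the highest point, had to be at least 99. The peak had to lie on chromosomes 1 to 19, at most 1000 bp away from where a RefSeq protein-coding gene begins or stops, and to share at least 1 bp with a Tle4cKO peak. These values are a description and not a finding. Of 128737 peaks in the WT list, 19893 on the autosomes reached that pileup, 8559 of those lay at a gene end, and 8558 also overlapped a Tle4cKO peak. The peak left out lay at Sin3a, the scaffold of a histone deacetylase complex, with a WT pileup of 105. The highest overlapping peak of the Tle4cKO list, which held 128129 peaks, was set beside each member.

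The assay was ATAC-seq, in which the Tn5 transposase cuts and tags DNA that is not covered by nucleosomes. There was 1 Tle4cKO library, from male mice carrying floxed Tle4 alleles and Lyz2-Cre (Tle4f/f Lyz2-Cre), and 1 WT library, from male mice carrying Lyz2-Cre alone. All animals were C57BL/6, untreated and 18.9 weeks old, each library pooled cells of 2 mice, and cells of both genotypes were sorted at one time as Siglec-F-negative, Ly6C-low, CD64-positive colon cells. Lyz2-Cre recombines floxed DNA in myeloid cells in general, so the deletion was not limited to colonic macrophages, and both groups carried the Cre. With 1 library a group no test between genotypes was possible, and every interval given below covers counting error only, not the spread between mice.

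TLE4 is a Groucho-family corepressor: it does not bind DNA itself but is brought to genes by partner transcription factors and recruits histone deacetylases there. Gene starts are commonly the most accessible sites in a genome, because the transcription machinery keeps a stretch around the start clear of nucleosomes. Many such starts lie in CpG islands, and in macrophages those of metabolic, ribosomal and lineage genes are open together.

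The promoters below show the DNA under 9 members on which the results turn, each as the 250 bases before an annotated start, 5′ to 3′ on the gene's strand, from the RefSeq promoter table of GRCm38.p6, the assembly that mm10 names. Capitals mark a match on either strand to GGGCGG (the GC box), CCAAT (bound by NF-Y), CGGAAG (ETS), TGACGTCA (CRE), GAGGAAGT (PU.1), CACGTG (E-box) or TATAAA (the TATA box), or to 3 motifs with free bases in them. These 3 were AP-1, TGA and TCA with any base between them, NRF1, a pair of GCGC blocks set 2 bases apart, and the interferon-stimulated response element, a pair of GAAA blocks set 2 bases apart, the last added after the values were seen. A match is a description of letters and not a bound site. The first 3 belong to members among the strongest, at Khsrp, which encodes an RNA-binding splicing and decay factor, at Osbp, an oxysterol-binding protein, and at Sp1, the factor that binds GC boxes. They were read from chr17:57031508-57031757 on the minus strand, chr19:11965594-11965843 on the plus strand and chr15:102406066-102406315 on the plus strand.
Khsrp: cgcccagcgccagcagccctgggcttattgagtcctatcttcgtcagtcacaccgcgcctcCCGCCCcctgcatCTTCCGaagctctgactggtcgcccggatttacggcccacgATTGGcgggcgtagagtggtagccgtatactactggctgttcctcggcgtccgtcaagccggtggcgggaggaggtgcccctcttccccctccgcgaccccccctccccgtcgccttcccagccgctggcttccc
Osbp: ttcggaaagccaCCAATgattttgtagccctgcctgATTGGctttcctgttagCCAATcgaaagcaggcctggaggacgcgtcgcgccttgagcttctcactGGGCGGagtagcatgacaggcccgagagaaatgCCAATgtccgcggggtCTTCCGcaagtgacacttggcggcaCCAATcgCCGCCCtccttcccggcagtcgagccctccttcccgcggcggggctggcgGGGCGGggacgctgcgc
Sp1: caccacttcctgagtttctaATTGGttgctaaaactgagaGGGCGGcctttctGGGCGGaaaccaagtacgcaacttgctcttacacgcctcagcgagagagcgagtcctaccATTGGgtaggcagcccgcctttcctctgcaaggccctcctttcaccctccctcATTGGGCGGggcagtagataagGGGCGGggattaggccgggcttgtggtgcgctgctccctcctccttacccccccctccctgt

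The next was the targeted gene, Tle4, at chr19:14598184-14598433 on the minus strand. Beside it stand Cd68, at chr11:69666171-69666420 on the minus strand, and Cd81, at chr7:143052500-143052749 on the plus strand. Both are on the list of macrophage identity genes used below, but of them only Cd68 is in the shorter marker set.
Tle4: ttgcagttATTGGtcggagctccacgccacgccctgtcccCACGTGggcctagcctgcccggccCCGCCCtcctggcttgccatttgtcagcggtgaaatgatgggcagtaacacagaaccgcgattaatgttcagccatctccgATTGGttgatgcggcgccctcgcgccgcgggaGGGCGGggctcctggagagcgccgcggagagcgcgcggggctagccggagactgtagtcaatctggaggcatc
Cd68: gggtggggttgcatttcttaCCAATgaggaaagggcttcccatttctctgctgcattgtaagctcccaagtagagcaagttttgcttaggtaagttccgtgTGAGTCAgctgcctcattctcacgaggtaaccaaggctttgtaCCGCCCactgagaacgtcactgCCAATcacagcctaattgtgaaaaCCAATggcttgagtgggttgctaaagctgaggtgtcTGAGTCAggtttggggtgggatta
Cd81: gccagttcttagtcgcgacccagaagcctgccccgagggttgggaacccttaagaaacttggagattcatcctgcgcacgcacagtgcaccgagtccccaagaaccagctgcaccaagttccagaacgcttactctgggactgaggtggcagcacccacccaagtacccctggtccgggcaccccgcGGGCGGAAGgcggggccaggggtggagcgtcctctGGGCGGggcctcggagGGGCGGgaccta

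The last 3 are a promoter among the highest relative ratios, that of the arginine methyltransferase gene Prmt9, at chr8:77549147-77549396 on the plus strand, and the promoters of 2 of the lowest, the zinc finger gene Zfp932, at chr5:109996260-109996509 on the plus strand, and the interferon-induced gene Ifit3b, at chr19:34607707-34607956 on the plus strand.
Prmt9: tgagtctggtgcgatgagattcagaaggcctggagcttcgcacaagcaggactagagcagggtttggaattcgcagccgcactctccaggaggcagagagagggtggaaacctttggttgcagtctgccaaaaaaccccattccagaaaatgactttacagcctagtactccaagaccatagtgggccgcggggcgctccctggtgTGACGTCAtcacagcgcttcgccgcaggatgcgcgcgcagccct
Zfp932: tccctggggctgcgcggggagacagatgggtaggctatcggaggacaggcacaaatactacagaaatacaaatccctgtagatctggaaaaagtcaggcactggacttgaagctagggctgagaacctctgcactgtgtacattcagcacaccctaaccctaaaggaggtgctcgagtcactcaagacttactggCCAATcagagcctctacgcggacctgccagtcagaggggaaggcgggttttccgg
Ifit3b: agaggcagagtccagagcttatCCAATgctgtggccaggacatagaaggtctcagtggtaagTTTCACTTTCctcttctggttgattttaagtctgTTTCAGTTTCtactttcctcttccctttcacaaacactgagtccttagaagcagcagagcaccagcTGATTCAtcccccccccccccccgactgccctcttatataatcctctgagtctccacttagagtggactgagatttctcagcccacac

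The Khsrp stretch held 1 GC box, 1 CCAAT box and 1 ETS match. The Osbp stretch held 3 GC boxes, 5 CCAAT boxes and 1 ETS match, and that of Sp1 held 4 GC boxes and 3 CCAAT boxes. The Tle4 stretch held 2 GC boxes, 2 CCAAT boxes and 1 E-box. Cd68 was poor in CpG, with 4 in the 300 bases from 250 before to 50 after its start, against 28 for Tle4 and 34 for Osbp. The Cd68 stretch held 2 AP-1 matches, 3 CCAAT boxes and 1 GC box. The Cd81 stretch held 3 GC boxes and 1 ETS match. Ifit3b had 1 CpG in its 300 bases, 2 interferon-response matches, 1 AP-1 match and 1 CCAAT box. Zfp932 had 9 CpG and 1 CCAAT box, and Prmt9 had 17 CpG and 1 CRE.

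Over all annotated starts the members followed CpG content. The promoter table matched 16457 of the 20665 autosomal protein-coding genes, with 20085 starts, and 40.8% of those starts lay inside a member. Starts inside a member had a median of 23 CpG in 300 bases and 62.3% G and C, against 5 CpG and 52.0% for starts elsewhere. Their observed-to-expected CpG ratio had a median of 0.815, against 0.300 elsewhere. Of starts with a ratio over 0.8, 4339 of 5832 (74.4%) lay inside a member, and of starts with a ratio under 0.2, 151 of 4294 (3.52%) did. Members over these CpG-poor starts had a median pileup of 97 in Tle4cKO and 128 in WT, against 135 in Tle4cKO and 167 in WT over the CpG-rich ones.

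The motifs differed in how they were shared out. GC boxes stood in 70.4% of starts inside members, 30.9% of starts elsewhere and 47.0% of all starts. ETS matches stood in 37.9% inside members, 10.2% elsewhere and 21.5% of all, and NRF1 matches in 16.3%, 3.66% and 8.83%. TATA boxes ran the other way, at 5.79% inside members, 17.5% elsewhere and 12.7% of all, as did AP-1 matches at 4.14%, 9.06% and 7.06%. CCAAT boxes were near even, at 39.9% inside members, 36.9% elsewhere and 38.1% of all, and so were PU.1 matches at 3.30%, 3.10% and 3.18% and interferon-response matches at 3.04%, 3.61% and 3.38%. CRE matches stood in 3.87%, 1.22% and 2.30%, and E-boxes in 11.4%, 5.46% and 7.89%. The GC box, ETS, NRF1, CRE and E-box letters hold a CpG, so these shares and the CpG content of the promoters cannot be told apart. Members with a CCAAT box over their start had a median pileup of 139 in Tle4cKO and 172 in WT, and members without one had 126 in Tle4cKO and 158 in WT.

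**Figure D1:**
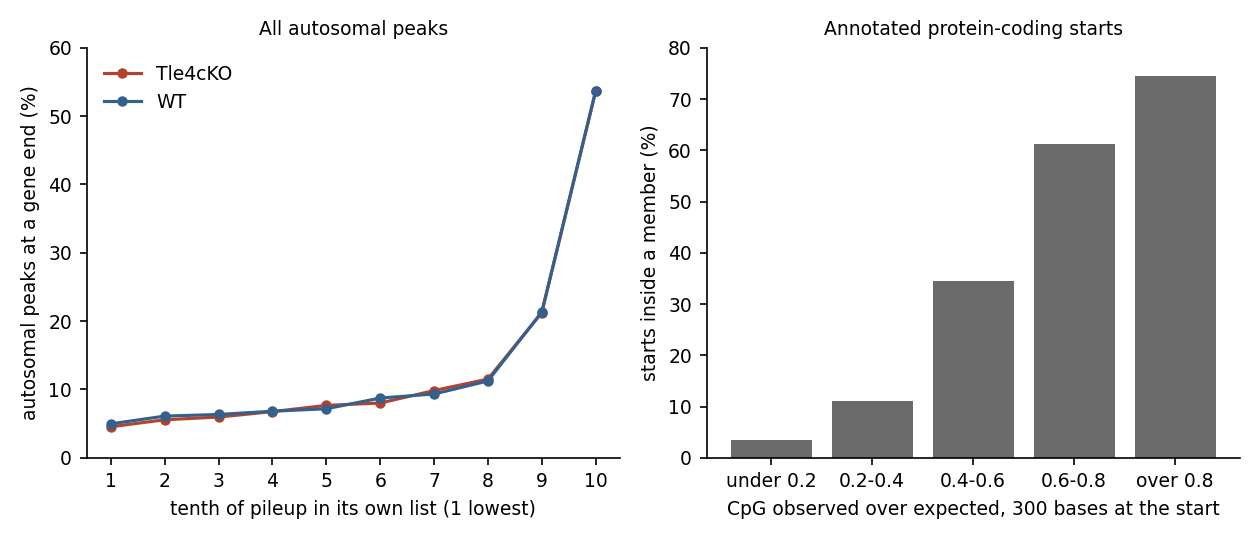
Left, share of autosomal peaks within 1000 bp of a gene end (y axis, percent) in 10 equal classes of the peaks of a list by pileup (x axis), for the Tle4cKO list (red) and the WT list (blue). Right, share of annotated protein-coding starts inside a member (y axis, percent) in 5 classes of observed-to-expected CpG (x axis): it runs up to 74.4% in the highest class, where the lowest class has 3.52%.

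Gene ends took a growing share of peaks as pileup rose, in both lists. In the lowest of 10 pileup classes of each list, 4.55% of Tle4cKO peaks and 4.97% of WT peaks lay at a gene end, and in the highest class 53.6% of Tle4cKO peaks and 53.7% of WT peaks did, as the plot of shares by pileup shows. The members made up 43.1% of the 19879 strong shared autosomal peaks, with 6364 more inside genes and 4957 outside genes. Among strong shared peaks with a WT pileup of 200 or more they were 1269 of 1692 (75%).

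Most members marked a gene start. Where the strand of the gene was known, 6149 lay at a start only, 559 at a start and an end, which can belong to different genes, and 340 at the far end only, and for 1510 the promoter table gave no strand. In all 6817 members lay at 1 gene, 1683 at 2 and 58 at 3 or more. Summits fell on both sides of the start, with fewer just before it. Of the 6319 members whose Tle4cKO summit lay within 1000 bp of an annotated start, 31.7% had it 100 to 200 bp downstream and 21.6% had it 300 to 100 bp upstream, with 8.75% in the last 100 bp before the start. For WT summits these shares were 32.2%, 21.5% and 8.13% of 6323. Tle4cKO and WT summits of a member lay a median of 17 bp apart, and 85.9% lay within 100 bp of each other.

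**Figure D2:**
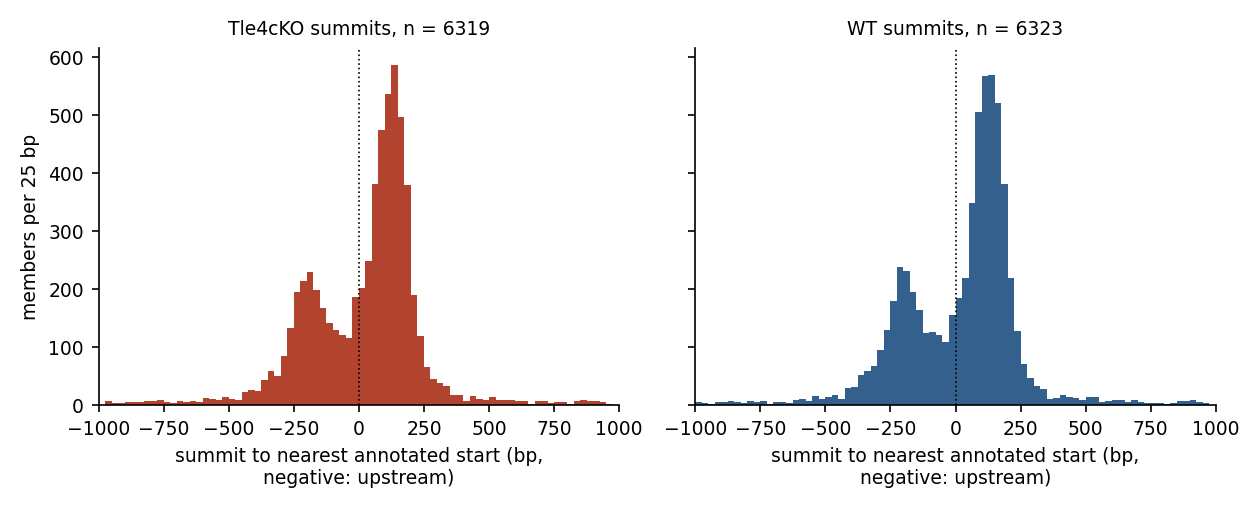
Distance in bp from the summit to the nearest annotated start (x axis, negative upstream) in bins of 25 bp (y axis, members per bin), for Tle4cKO summits (left, n = 6319) and WT summits (right, n = 6323). In both lists the larger mode lies just downstream of the start and the smaller mode just upstream, with fewer summits in the 100 bp before the start.

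Members that held starts on both strands, 752 in all, were stronger and wider than those with starts on 1 strand. Their pileup had a median of 140 in Tle4cKO and 173 in WT, and their width 1584.5 bp in Tle4cKO and 1679.5 bp in WT. The 5627 members with starts on 1 strand had 128 in Tle4cKO and 160 in WT, and widths of 1449 bp in Tle4cKO and 1546 bp in WT. One pair of this kind was Pdcd10, a gene of vascular integrity, and Serpini1, a neuronal protease inhibitor, whose shared member at chr3:75555888-75557836 reached 222 in Tle4cKO and 274 in WT.

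The 340 members at the far end only were weaker and narrower, with a median pileup of 100.5 in Tle4cKO and 131 in WT and a median width of 1112 bp in Tle4cKO and 1210 bp in WT. An annotated start lay inside 22 of them, and 17 lay within 1000 bp of an end of a long non-coding RNA gene, as did 1130 of all 8558 members. The strongest in WT lay at the end of Slc13a3, a dicarboxylate carrier, with 181 in Tle4cKO and 225 in WT. That of Papss1, an enzyme of sulfate donor synthesis, had 174 in Tle4cKO and 223 in WT, and that of Mgll, a monoglyceride lipase, had 175 in Tle4cKO and 211 in WT. These 3 were picked from among the strongest in WT after the values were seen. Slc12a3, with 174 in Tle4cKO and 220 in WT, and Sh2d6, with 172 in Tle4cKO and 212 in WT, ranked above Mgll in WT.

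Tle4cKO pileups of the members ran from 28 to 263, with a median of 126 and a middle spread of 101 to 153. WT pileups ran from 99, the minimum of the rule, to 284, with a median of 158 and a middle spread of 132 to 185. The ratio of Tle4cKO to WT had a median of 0.801, and WT was the higher in 99.7% of members. The same held for strong peaks elsewhere, with median ratios of 0.763 inside genes and 0.757 outside genes. No scaling between the lists is recorded and the minimum was set on WT only, so a ratio below 1 by itself says nothing of a member. Ratios are therefore also given as a relative log2 ratio, the log2 ratio minus the median of strong shared peaks of the same class of WT pileup, of which there were 10.

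The median ratio grew with WT pileup, at 0.725 in the lowest class, pileups of 99 to 105, and 0.842 in the highest, pileups of 196 to 314. The relative log2 ratio of members had a median of 0.013, against -0.0049 for peaks inside genes and -0.018 for peaks outside genes. It was above both in each of the 10 classes, by a few hundredths at most. Members were also less spread, with an SD across peaks of 0.128 on the log2 scale, against 0.152 inside genes and 0.152 outside genes. Members also had higher pileups than the other peaks, and whether the spread differs at like pileup was not tested. At a WT pileup of 99 and the ratio usual there, 0.727, the exact 95% counting interval ran from 0.529 to 0.995, and at the median WT pileup of 158 it ran from 0.631 to 1.02 around 0.804. A summit is a maximum, which makes these intervals approximate.

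**Figure D3:**
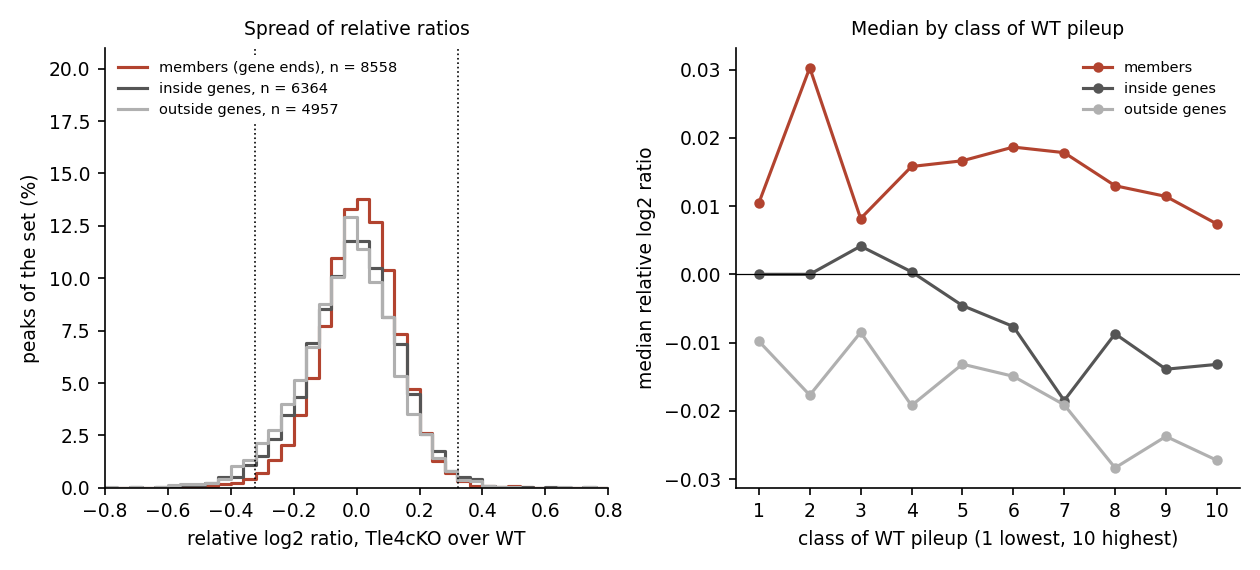
Left, relative log2 ratio of Tle4cKO over WT (x axis) against the percentage of peaks in bins of 0.04 (y axis), for members (red), strong peaks inside genes (dark grey) and strong peaks outside genes (light grey), with dotted lines at 0.32 to either side of 0. Right, median relative log2 ratio (y axis) in the 10 classes of WT pileup (x axis): members lie above the other sets in each class.

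A member was called apart where its relative log2 ratio was at least 0.32 to either side of 0, which is a size and not a test. By this measure 59 members (0.689%) were called higher in Tle4cKO, beside 0.921% of all strong shared peaks. A further 84 members (0.982%) were called lower, beside 2.2% of all strong shared peaks. Inside genes 1.27% were called higher and 2.77% lower, and outside genes 0.867% and 3.57%. The counting interval of the ratio left out the class median in 33 of the 59 and 27 of the 84. These members were picked for the size of their ratio, so the counts are no support for the calls. Over all members the interval left out the class median in 0.713%, beside 0.941% of all strong shared peaks. Of the called members 40 of the 59 and 52 of the 84 had a WT pileup under 130, where 23.2% of all members lay.

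The 8 highest relative ratios stood at Rab3gap2, Gemin2 with Sec23a, Qk, Ptger4, Gpx1, Zfp36, Snx8 and Arf1. In 7 of them, all but Zfp36, the Tle4cKO peak used overlapped 2 WT peaks, and the member was the weaker of those. In 6 of the 7 that was the single Tle4cKO peak at the member, 2122 to 3099 bp wide. At Rab3gap2, a subunit of a Rab3-regulating complex, the Tle4cKO peak was 2553 bp wide with a pileup of 152, and the WT peaks under it had 107, the member at chr1:185204908-185205549, and 182. At Gemin2 and Sec23a, of spliceosome assembly and of vesicle coats, the member overlapped 2 Tle4cKO peaks. The higher, with 184, shared only 193 bp with the member, which had 137 in WT, and its other WT peak had 197. The lower lay inside the member, with 106 in Tle4cKO, a ratio of 0.774. At Ptger4, a receptor for prostaglandin E2, the Tle4cKO peak had 151, against WT pileups of 134 and 188. Against the stronger WT peak, the ratios at these 7 ran between 0.665 and 0.934.

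Zfp36, which encodes tristetraprolin, a protein that destabilises cytokine mRNAs, had 149 in Tle4cKO and 136 in WT over a member of 545 bp at chr7:28378202-28378746, with widths of 581 bp in Tle4cKO and 545 bp in WT. Its ratio was 1.10 (counting interval 0.863 to 1.39) and its relative log2 ratio 0.52. The other members at Zfp36 had 189 and 136 in Tle4cKO and 215 and 157 in WT, and were not called. Of the 8558 members, 8038 were 1-to-1 pairs, in which neither peak overlapped another peak of the other list. After Zfp36 the highest among these pairs, a ranking added after the values were seen, included Cd81, Apbb3 with Slc35a4, Prmt9, Chmp2b, an endosomal sorting subunit, and the shared start of Lig4, a DNA repair ligase, and Abhd13.
The start of Cd81, a tetraspanin of the macrophage surface, had 117 in Tle4cKO and 113 in WT, with a ratio of 1.04 (0.793 to 1.35). Its summits lay 320 bp apart, and those of Zfp36 280 bp, where the median over members was 17 bp. The member of Apbb3, an adaptor of the amyloid precursor protein, and Slc35a4, a solute carrier, had 161 in Tle4cKO and 147 in WT. Prmt9 had 103 in Tle4cKO and 101 in WT. Chmp2b had 119 in Tle4cKO and 114 in WT, and Lig4 with Abhd13 had 113 in Tle4cKO and 110 in WT. These pairs had raw ratios of 1.02 to 1.10, where the median ratios of their classes lay between 0.725 and 0.775. Cd81 also had a member at its far end, shared with Tssc4, and that one had 149 in Tle4cKO and 196 in WT and was not called.

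The lowest ratio by far belonged to Zfp932. Its start, at chr5:109995914-109997037, had a pileup of 28 in Tle4cKO and 106 in WT, a ratio of 0.264 (0.168 to 0.404) and a relative log2 ratio of -1.47. The peak was 656 bp wide in Tle4cKO and 1124 bp in WT. Its summits lay 322 bp apart, where the median over members was 17 bp. The 11 other strong peaks within 250 kb had a median ratio of 0.815, and the lowest of them had a relative log2 ratio of -0.12. Over genes named Zfp as a family, a set drawn up after the values were seen, 239 of 391 had a member, and of their 246 members 1 was called higher and 5 lower, where 2.2% of all strong shared peaks and 0.982% of all members were called lower.

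The next lowest was Atg7, the activating enzyme of autophagy conjugation, with 47 in Tle4cKO and 109 in WT (ratio 0.431, 0.300 to 0.612). There the member overlapped 2 Tle4cKO peaks, and the higher, used here, was 571 bp wide, against 982 bp in WT. Lag3, an inhibitory receptor for MHC class II best known from T cells, had 46 in Tle4cKO and 100 in WT. Ifit3b had 58 in Tle4cKO and 120 in WT (ratio 0.483, 0.347 to 0.667), with nearly equal widths of 1577 bp in Tle4cKO and 1623 bp in WT. Shroom1, of the actin cytoskeleton, had 54 in Tle4cKO and 109 in WT.
The remaining 3 of the lowest 8 lay at a far end only. Ecm1, an extracellular matrix protein, had 76 in Tle4cKO and 143 in WT there. Ppp1r15a, a stress-induced phosphatase subunit, had 62 in Tle4cKO and 121 in WT, and Slc28a3, a nucleoside transporter, had 67 in Tle4cKO and 129 in WT. The summits at Ppp1r15a lay 331 bp apart. Apart from it and Zfp932, the lowest 8 had summits 3 to 43 bp apart. In all 8, which were picked for their low ratios, the counting interval of the ratio left out the class median. The median ratio of the other strong peaks within 250 kb lay between 0.705 and 0.815. The lowest such neighbour was itself called lower near Lag3 and near Ecm1, with relative log2 ratios of -0.46 and -0.37.

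**Figure D4:**
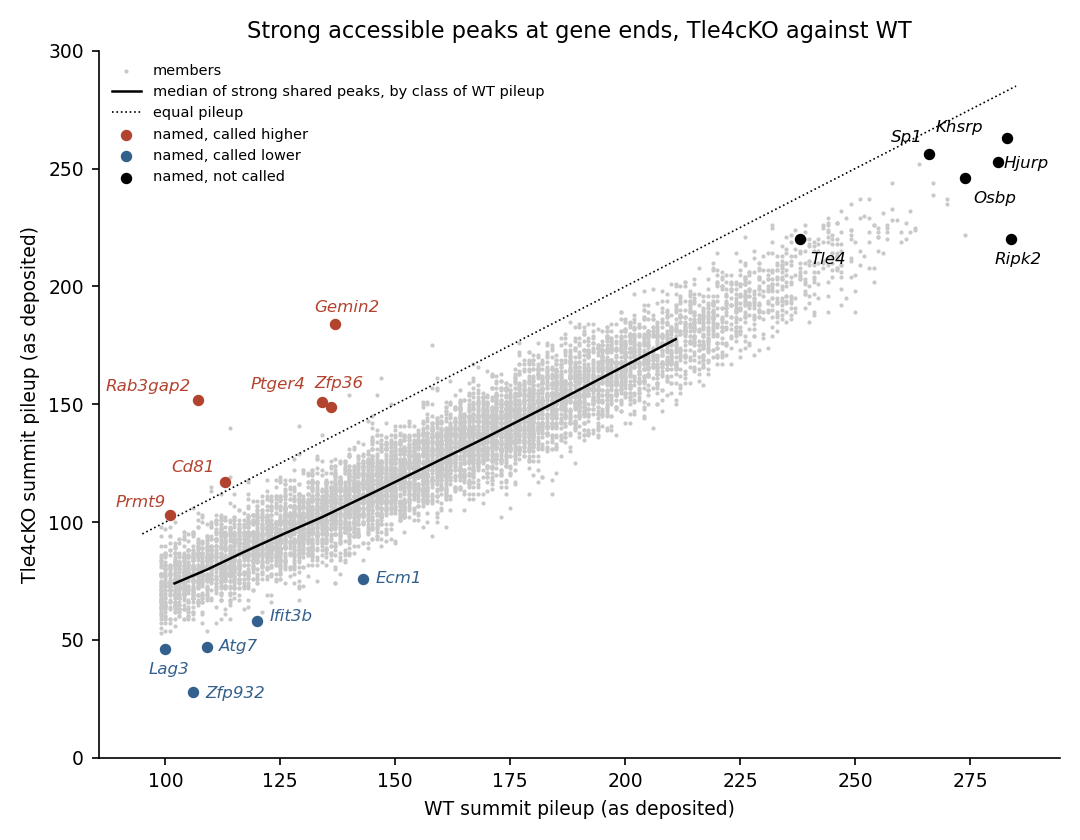
Summit pileup in Tle4cKO (y axis) against WT (x axis) for the 8558 members (grey), with the median of strong shared peaks by class of WT pileup (solid line) and equal pileup (dotted line). Named members called higher are red, those called lower are blue and others are black. Zfp932 lies lowest, with 28 in Tle4cKO and 106 in WT, and Rab3gap2 lies above the equal line with 152 in Tle4cKO and 107 in WT.

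None of the 10 strongest members was called apart, where 1.67% of all members were. Ripk2, the kinase that carries signals of bacterial peptidoglycan sensors, was the strongest in WT, with 220 in Tle4cKO and 284 in WT, and had the lowest ratio of the 10, 0.775 (0.647 to 0.927). Khsrp, whose member also lay at an end of Slc25a41, had 263 in Tle4cKO and 283 in WT, the highest Tle4cKO pileup of any member. Hjurp, a centromere histone chaperone, had 253 in Tle4cKO and 281 in WT, Osbp had 246 in Tle4cKO and 274 in WT, and Sp1 had 256 in Tle4cKO and 266 in WT with the highest ratio of the 10, 0.962 (0.807 to 1.15).
The others were Pdcd10 with Serpini1, at 222 in Tle4cKO and 274 in WT, Ap2a1, an endocytic adaptor subunit, with 237 in Tle4cKO and 270 in WT, Aph1b, a gamma-secretase subunit, with 235 in Tle4cKO and 270 in WT, Dnpep, an aminopeptidase, with 239 in Tle4cKO and 267 in WT, and Mtmr4, a phosphoinositide phosphatase, with 244 in Tle4cKO and 267 in WT. The Ap2a1 member also lay at an end of Tsks, and that of Mtmr4 at an end of Septin4.

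Members were wider than strong peaks inside genes in all 10 classes of WT pileup, by 122.5 to 262 bp in Tle4cKO and 105.5 to 314 bp in WT. The median width was 1445 bp in Tle4cKO and 1541 bp in WT, and the median ratio of widths was 0.962. The widest lay at Ctsz, a lysosomal cysteine protease, with 4074 bp in Tle4cKO and 4402 bp in WT. Phf2, a histone demethylase, had a WT member of 4400 bp, but the highest Tle4cKO peak there was 968 bp wide. St8sia4, a polysialyltransferase, had 1229 bp in Tle4cKO and 4345 bp in WT, and Mllt3, a chromatin reader, had 1430 bp in Tle4cKO and 4204 bp in WT. A member was set beside 1 Tle4cKO peak even where several lay under it, as they did for 425 members.
The narrowest lay at Klf6 and Bhlhe40, both transcription factors of myeloid cells, with 207 and 201 bp in Tle4cKO and 203 and 227 bp in WT. Mettl16, an RNA methyltransferase, and Socs3, an inhibitor of cytokine signalling, followed at 209 and 219 bp in Tle4cKO and 253 and 288 bp in WT.

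Of 20665 autosomal protein-coding genes, 9523 (46.1%) had a member at an end, and few had several: 8722 had 1, 767 had 2 and 34 had 3 or more. Atp6v0c, a proton pump subunit of lysosomes, and Klf6 had 4 each. The members at Atp6v0c, the first also at an end of Amdhd2, had 134, 101, 145 and 159 in Tle4cKO and 157, 113, 168 and 186 in WT. Those at Klf6 had 190, 107, 112 and 116 in Tle4cKO and 204, 120, 157 and 154 in WT, with ratios of 0.931 and 0.892 at its start and 0.713 and 0.753 at its far end. None of the 8 was called apart, where 1.67% of all members were. Bhlhe40 had 3 members, with 201, 81 and 120 in Tle4cKO and 223, 106 and 145 in WT.

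At the minimum of the rule lay 53 members with a WT pileup of 99, and 51 peaks at gene ends had 98. Just inside were Eef1b2, a translation elongation factor, with 94 in Tle4cKO and 99 in WT, Pik3c2b, a lipid kinase, with 61 in Tle4cKO and 99 in WT, and Ly9, a leukocyte surface receptor, with 90 in Tle4cKO and 99 in WT. Just outside were Stau2, an RNA transport protein, with 78 in Tle4cKO and 98 in WT, Vwa3b with 70 in Tle4cKO and 98 in WT, and Skida1 with 63 in Tle4cKO and 98 in WT.

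Set beside that share of 46.1%, the gene lists ran between 0% and 100%. All of the genes listed had a member for cytosolic ribosomal proteins (21 of 21), RNA splicing (17 of 17), chaperones (16 of 16), translation factors (14 of 14) and histone methylation (13 of 13). Lists with 1 gene missing were immediate early and AP-1 genes (20 of 21, without Batf), the lysosome and V-ATPase (17 of 18), the proteasome (15 of 16), the respiratory chain (14 of 15), NF-kappaB genes (12 of 13) and housekeeping genes (12 of 13). Antigen presentation had 14 of 16, cell cycle genes 15 of 18 and clock genes 10 of 14. By family, drawn up after the values were seen, 84 of 95 cytosolic and 64 of 78 mitochondrial ribosomal protein genes had a member. Among large families of sensory and surface tissues, 4 of 1104 olfactory receptor, 1 of 354 vomeronasal receptor and 2 of 112 keratin genes had one, as did 3 of 39 Hox genes.

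**Figure D5:**
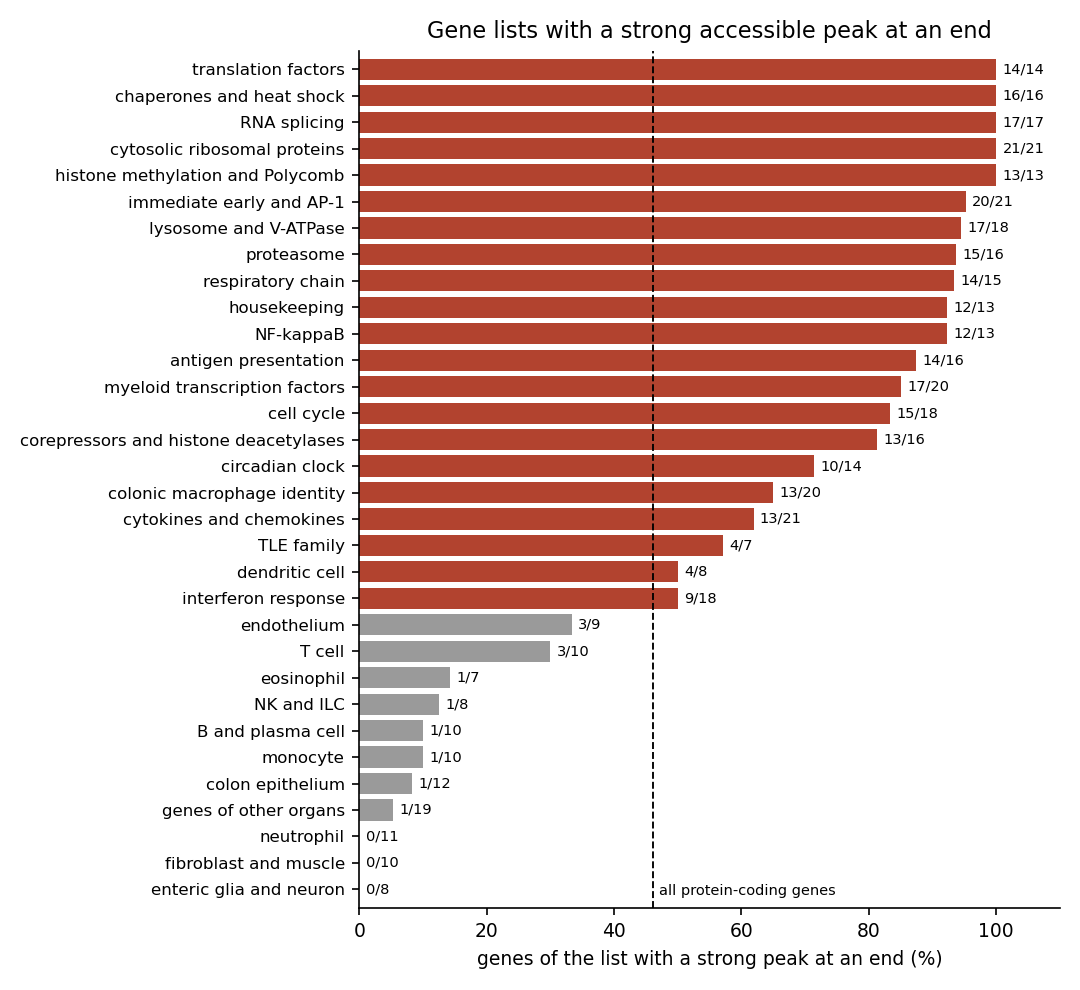
Share of the autosomal genes of each list with a member at an end (x axis, percent), by list (y axis), with the count beside each bar. The dashed line is the 46.1% of all protein-coding genes; lists above it are red and lists below it grey.

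Of 20 colonic macrophage identity genes 13 had a member. Cx3cr1, Mrc1, Lyz2, Apoe, Timd4, Folr2 and Cd163 had none, which says only that no peak at their ends reached the minimum within the window. Cd68, an endosomal glycoprotein, had 3 members, with 166, 152 and 135 in Tle4cKO and 202, 179 and 160 in WT, each also at an end of Eif4a1 or Mpdu1. Csf1r, the receptor for the growth factor that maintains macrophages, had 164 in Tle4cKO and 178 in WT (ratio 0.921), but there a Tle4cKO peak of 3768 bp was set beside a WT member of 910 bp. Cd14, the lipopolysaccharide co-receptor, had 149 in Tle4cKO and 186 in WT. Mertk, a receptor for dying cells, had 105 in Tle4cKO and 144 in WT, and Adgre1, which encodes F4/80, had 94 in Tle4cKO and 130 in WT. Of the 17 members on this list only the one at the Cd81 start was called, where 1.67% of all members were.

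By a shorter marker set, 9 of 12 macrophage markers had a member, against 7 of 32 markers of other colon cell types, some of which, such as Siglec-F-positive eosinophils, the sort was set to remove. No monocyte, neutrophil, T cell, NK, fibroblast or glial marker of that set had one. The 7 were Siglecf, Flt3, Xcr1, Cd79a, Vil1, Kdr and Pecam1. The member at Siglecf, the eosinophil receptor used to gate cells out, was near the minimum with 63 in Tle4cKO and 101 in WT. The Cd79a member also lay at an end of Arhgef1, the Vil1 members at Usp37 and the stronger Xcr1 member, with 155 in Tle4cKO and 182 in WT, at Fyco1. The other Xcr1 member had 111 in Tle4cKO and 137 in WT, and no other gene end lay there. The same was so for Pecam1, an endothelial adhesion protein, with 126 in Tle4cKO and 171 in WT, for Kdr, a vascular growth factor receptor, with 101 in Tle4cKO and 125 in WT, and for Flt3, a receptor of dendritic cell growth, with 87 in Tle4cKO and 116 in WT. A member within 1000 bp of 2 genes cannot be assigned to either, and accessibility at an end is not expression.
Over the longer lists 0 of 11 neutrophil genes, 0 of 10 fibroblast and muscle genes and 0 of 8 glial and neuronal genes had a member, while 1 of 10 monocyte, 1 of 7 eosinophil, 1 of 10 B and plasma cell, 1 of 8 NK and ILC, 1 of 12 epithelial, 3 of 10 T cell, 4 of 8 dendritic cell and 3 of 9 endothelial genes did. The gene of the NK and ILC list was Il7r, the interleukin receptor of lymphoid cells, with 151 and 97 in Tle4cKO and 188 and 136 in WT. Those of the T cell list were Cd5, Cd3d and Cd4, with 124, 126 and 118 in Tle4cKO and 147, 144 and 144 in WT. The Cd4 member also lay at an end of Gpr162. Batf3 and Clec9a of dendritic cells had 87 and 93 in Tle4cKO and 129 and 116 in WT, the latter also at Clec1b. Vwf of endothelium had 95 in Tle4cKO and 135 in WT, and Fn1 of monocytes had 71 in Tle4cKO and 105 in WT. The part of other cell types in any ratio was not tested.

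Transcription factors of myeloid cells had members at 17 of 20 genes, without Tfec, Bhlhe41 and Zeb2. Their 27 members had a median of 133 in Tle4cKO and 168 in WT and a median ratio of 0.816. None of the 27 was called, where 1.67% of all members were. Cebpb, a bZIP factor of myeloid activation, had 182 in Tle4cKO and 200 in WT. Spi1, which encodes PU.1, had 3 members, with 144, 88 and 78 in Tle4cKO and 170, 119 and 99 in WT. Runx1 and Runx3, DNA-binding partners of TLE proteins, had 126 and 133 in Tle4cKO and 155 and 180 in WT.

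The 26 members at immediate early genes, which are switched on within minutes of a signal, had a median of 166.5 in Tle4cKO and 191 in WT and a median ratio of 0.852, and 2 were called higher, where 0.689% of all members and 0.921% of all strong shared peaks were. They were the Zfp36 member described above, beside others at that gene that were not called, and a Junb member. The latter lay at the far end of Junb, an AP-1 subunit, with 161 in Tle4cKO and 159 in WT. The strongest of 3 Junb members had 225 in Tle4cKO and 257 in WT. Fosl2, another AP-1 subunit, had 187 in Tle4cKO and 221 in WT, and Atf3, a stress-induced repressor, had 196 in Tle4cKO and 218 in WT.

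Cytokine and chemokine genes had a member at 13 of 21, and of their 18 members 1 was called higher and 1 lower, too few to set beside the 0.921% and 2.2% of all strong shared peaks. Cxcl1, a neutrophil chemoattractant, had 64 in Tle4cKO and 118 in WT, a ratio of 0.542 and a relative log2 ratio of -0.46. Its neighbour Cxcl2 had 187 in Tle4cKO and 213 in WT and was not called. At the start of Tgfb1, shared with B9d2, the Tle4cKO peak was 3457 bp wide with 175, against a WT member of 1620 bp with 158. Tnf, Il6 and Il10 had members with 124, 109 and 133 in Tle4cKO and 152, 131 and 165 in WT, and a further Il10 member had 107 in Tle4cKO and 144 in WT. The Tnf member also lay at an end of Lta. Il1b, Il1a, Il12a and Il12b had none.

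Interferon response genes had a member at 9 of 18, close to the share of all genes. None of the 9 members was called, where 1.67% of all members were. Irf1 and Stat2, which drive these genes, had 166 and 161 in Tle4cKO and 193 and 181 in WT. The Stat2 member also lay at an end of Apof. Ifit2, of the same gene family as Ifit3b, had 103 in Tle4cKO and 140 in WT (ratio 0.736) and was not called. NF-kappaB genes had 15 members with a median relative log2 ratio of -0.045 and none called, among them Rel, with 174 in Tle4cKO and 218 in WT, and its inhibitor Nfkbia, with 171 in Tle4cKO and 217 in WT.

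Corepressor and histone deacetylase genes, through which TLE proteins act, had members at 13 of 16, without Hdac4, Hdac7 and Hdac9. None of their 14 members was called, where 1.67% of all members were, and the median ratio was 0.786. Hdac1 had 134 in Tle4cKO and 155 in WT, Hdac2 had 135 in Tle4cKO and 175 in WT, and Sin3a had 183 in Tle4cKO and 222 in WT. Of 7 TLE family genes, Tle1, Tle3, Tle4 and Tle6 had a member. The Tle4 start, at chr19:14596847-14599206, had 220 in Tle4cKO and 238 in WT, with a ratio of 0.924 (0.766 to 1.12). The labels do not say which part of Tle4 is floxed, so a peak at its start is no check of the deletion. Tle1 had 190 in Tle4cKO and 224 in WT, Tle3 had 122 and 99 in Tle4cKO and 146 and 122 in WT, and Tle6 had 93 in Tle4cKO and 121 in WT.

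Antigen presentation genes had 21 members with a median ratio of 0.842 and none called. H2-D1, an MHC class I chain, had 202 in Tle4cKO and 230 in WT. The strongest member at Cd74, the MHC class II invariant chain, had 187 in Tle4cKO and 219 in WT. There a Tle4cKO peak of 4649 bp was set beside a WT member of 2103 bp. The other Cd74 members had 80 and 90 in Tle4cKO and 116 and 137 in WT, the latter also at an end of Tcof1. Clock genes had some of the strongest members, with a median of 176 in Tle4cKO and 209 in WT over 11. Per1, a clock repressor, had 203 in Tle4cKO and 234 in WT, and Nr1d1, a nuclear receptor of the clock, had 190 in Tle4cKO and 229 in WT. Cell cycle genes had weaker members, with a median of 105 in Tle4cKO and 134 in WT over 16. Their strongest member, with 215 in Tle4cKO and 239 in WT, lay at Cdk2, a kinase of DNA replication, and also at ends of Pmel and Rab5b. The other Cdk2 member had 118 in Tle4cKO and 171 in WT (ratio 0.690). Next was Ccne1, the partner of Cdk2, with 174 in Tle4cKO and 231 in WT (ratio 0.753). Among histone methylation genes, Kmt2b, a methyltransferase, had 171 in Tle4cKO and 202 in WT, and Kdm6b, a demethylase, had 154 in Tle4cKO and 194 in WT. The Kmt2b member also lay at an end of Zbtb32, and that of Kdm6b at an end of Dnah2. No antigen presentation, clock, cell cycle or histone methylation member was called, where 1.67% of all members were.

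For genes of basic cell functions no member was called apart in the lists of ribosomal proteins, translation, proteasome, lysosome, respiratory chain, splicing and chaperones. These lists had 15 to 22 members each, and 1.67% of all members were called. In the wider families, 1 of the 88 members at cytosolic ribosomal protein genes was called higher and 2 of the 30 at RNA polymerase genes were called lower. The lists' median ratios lay between 0.786, for cytosolic ribosomal proteins, and 0.855, for translation factors. Among these lists translation factors and chaperones had the strongest members, with medians of 175 and 173 in Tle4cKO and 199.5 and 199 in WT. Rplp0, of the ribosomal stalk, had 202 in Tle4cKO and 213 in WT, and Rps19 had 209 in Tle4cKO and 251 in WT. Hsph1, a heat shock chaperone, had 209 in Tle4cKO and 247 in WT, and Hspa8 had 215 in Tle4cKO and 242 in WT. Npc2, a lysosomal cholesterol carrier, had 179 in Tle4cKO and 217 in WT at a member shared with Isca2.

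By chromosome, the share of genes with a member was lowest on chromosomes 7 and 14, at 37.5% and 37.6%, and highest on chromosomes 8 and 11, at 53.5% and 53.6%. Of annotated microRNA hairpins, which are cut from longer transcripts, some lay under members, 61 of which held at least 1. Mir142, a microRNA of blood cells, lay under a member at Tspoap1 with 142 in Tle4cKO and 168 in WT.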

How the data were processed

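The authors deposited 1 peak list per library, with the start, end, length, summit and pileup of each peak. The deposited pileup is a signal value, a whole number of at least 7, and no scaling between the lists is recorded. Per the submitters' processing notes, the build was mm10 and the tools were HOMER 4.7.2, MACS2 2.1.1, Bowtie2 2.2.5, edgeR 3.28.1, featureCounts 1.5.0 and cutadapt 1.14, whose roles are not stated there. The total read number of each library is unknown. The lists were peak calls on pooled mice, with a median pileup of 20 over all peaks in Tle4cKO and 28 in WT.

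Here, peaks were joined to RefSeq gene ends of GRCm38.p6 by overlap and to the highest overlapping Tle4cKO peak (Python 3.11.15, pandas 2.3.3, numpy 2.4.6, scipy 1.17.1), and bedtools 2.31.1 gave the same 8558 members. Strong shared peaks were split into 10 classes of WT pileup, and the class median was taken from each log2 ratio. Ratio intervals are exact binomial, at 95%. Strand and starts came from the RefSeq promoter table where it held the gene.

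Named were the 10 strongest members, the 8 highest and 8 lowest relative ratios, up to 3 of the strongest per gene list, the 4 widest and 4 narrowest, genes with 3 or more members (at most 6), TLE genes, and 3 peaks on each side of the minimum. Genes named beyond this rule (further list members, far-end members, 1-to-1 pairs) were chosen after their values were seen. The members and lists were chosen with earlier results of these data known. No test was run between the genotypes, since there is 1 library of each. Alternatives changed the minimum, window, overlap, matching, classes and fold.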

Additional observations from a re-analysis of the deposited data

How the results depend on the processing

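No paired analysis was possible because there is 1 library of each genotype. Of 42 values under other settings, 31 stayed within the main value's interval (for counts, within 1.5 times) and none changed sign. That interval took the members as separate draws, so it served as a yardstick only and says nothing of the spread between mice. A minimum of 150 left 4966 members, with a median ratio of 0.821, a width ratio of 0.964 and 0.342% called, and a minimum of 80 gave 0.795 and 2.74%. A wider window gave a ratio of 0.799. Classes of summed pileup gave a relative log2 ratio of 0.0062 and 1.005% called, and a threshold of 1.5-fold called 0.0818%. Pairs of 1 peak each, added after seeing the data, gave a width ratio of 0.965. The share called thus depends on the minimum, the classes and the fold. Under each setting the members' share called stayed below that of strong peaks inside and outside genes. These shares were not matched for pileup: the median WT pileup was 158 for members and 128 for each of the other sets. Whether the share called differs at like pileup was not tested. Judged by the counting interval, pileups near the minimum cannot show a single difference smaller than about that interval. These intervals were wider than the scatter of the ratios, so they are a rough limit only.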
